A study of Mus musculus with 77 samples.

Results

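The 9 genes described here encode the apolipoproteins Apoa1, Apoa2, Apoa4, Apoa5, Apob, Apoc3, Apoe and Apom, together with Mttp, the microsomal triglyceride transfer protein. They were taken by name from the 55487 genes of the liver count table, and all 9 were among the 14904 genes with enough counts to be tested. The liver exports triglyceride and cholesterol in very low-density lipoprotein (VLDL). Mttp loads lipid onto the large structural protein Apob in the endoplasmic reticulum, and smaller, exchangeable apolipoproteins then govern how the particle is lipolysed and cleared. Apoa1 and Apoa2 are the main structural proteins of high-density lipoprotein (HDL), and the Apoa1, Apoc3, Apoa4 and Apoa5 genes form a known cluster.

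Livers of male C57BL/6JRj mice were sampled from the left lateral lobe, with 1 RNA library per mouse and 77 mice in 10 groups. DIO-MASH mice arrived at 5 to 6 weeks of age and were fed the Gubra Amylin NASH diet, which is high in fat, fructose and cholesterol, for 34 weeks as a model of diet-induced obesity and metabolic dysfunction-associated steatohepatitis (MASH), and were biopsied 4 weeks before treatment. In 3 semaglutide groups (7, 8 and 8 mice) the GLP-1 receptor agonist was given at 123 µg per kg under the skin once a day for 8, 16 or 24 weeks. In 3 chow reversal groups (7, 8 and 8 mice) the MASH diet was replaced by chow and vehicle was injected for 8, 16 or 24 weeks, 3 vehicle groups (9, 8 and 7 mice) received vehicle for the same times with no change to chow, and 7 mice kept on chow throughout received vehicle for 24 weeks. Mice of the DIO-MASH groups had been chosen by the steatosis and fibrosis scores of the biopsy, so they stand for selected animals, and chow-fed mice were sampled at 24 weeks only. The question was which genes of lipoprotein assembly differed with the diet, with the drug and with the withdrawal of the diet.

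Apoa1 lies on mouse chromosome 9 at chr9:46228580-46230466 on the plus strand in GRCm38, followed by Apoc3 at chr9:46232933-46235636 on the minus strand, Apoa4 at chr9:46240696-46243459 on the plus strand and Apoa5 at chr9:46268633-46271919 on the plus strand. The 4 genes span 43340 bases, with 5059 bases between Apoc3 and Apoa4 and 25173 bases between Apoa4 and Apoa5. The other members lie apart, with Apoa2 at chr1:171225054-171226379 (plus), Apob at chr12:7977648-8016835 (plus), Apoe at chr7:19696109-19699188 (minus), Apom at chr17:35128997-35132050 (minus) and Mttp at chr3:138089854-138144968 (minus). Apoa4 overlaps the opposite-strand predicted genes Gm10680 and Gm47528, at mean levels of 0.441 and 0.0817 CPM (counts per 1000000), and Apoa5 overlaps Gm47544 at 1.54 CPM. Mttp overlaps Trmt10a at 3.84 CPM. Whether the counting used strand is not stated, although the library kit was directional, and these partners lay far below the members.

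RefSeq start-site windows of GRCm38.p6, 250 bases before to 50 after the start, were found for 8 of the 9 members. Apoa4 and Apom are shown because they were the members called with semaglutide at all 3 times, and Apoa1 and Apoa5 because they are the plus-strand neighbours of Apoa4. The windows lie at chr9:46240594-46240893 (plus, Apoa4), chr9:46228380-46228679 (plus, Apoa1), chr9:46268358-46268657 (plus, Apoa5) and chr17:35131752-35132051 (minus, Apom), each written 5′ to 3′ on the strand of its gene, with matches to the motifs searched in capitals.
Apoa4: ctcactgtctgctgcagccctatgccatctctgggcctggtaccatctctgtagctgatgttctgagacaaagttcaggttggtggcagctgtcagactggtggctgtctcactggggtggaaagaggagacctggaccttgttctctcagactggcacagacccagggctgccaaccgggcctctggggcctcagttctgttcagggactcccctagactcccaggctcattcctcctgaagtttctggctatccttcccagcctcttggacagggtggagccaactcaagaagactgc
Apoa1: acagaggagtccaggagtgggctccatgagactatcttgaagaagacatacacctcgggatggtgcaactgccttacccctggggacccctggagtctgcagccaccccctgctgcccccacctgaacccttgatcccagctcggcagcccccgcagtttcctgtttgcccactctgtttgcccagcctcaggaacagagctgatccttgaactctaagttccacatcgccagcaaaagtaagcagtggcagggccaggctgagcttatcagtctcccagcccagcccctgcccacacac
Apoa5: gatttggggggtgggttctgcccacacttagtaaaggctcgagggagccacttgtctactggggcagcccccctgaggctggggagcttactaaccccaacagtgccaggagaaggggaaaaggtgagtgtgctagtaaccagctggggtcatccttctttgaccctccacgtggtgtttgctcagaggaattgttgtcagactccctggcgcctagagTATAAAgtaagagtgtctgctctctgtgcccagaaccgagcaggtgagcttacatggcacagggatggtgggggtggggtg
Apom: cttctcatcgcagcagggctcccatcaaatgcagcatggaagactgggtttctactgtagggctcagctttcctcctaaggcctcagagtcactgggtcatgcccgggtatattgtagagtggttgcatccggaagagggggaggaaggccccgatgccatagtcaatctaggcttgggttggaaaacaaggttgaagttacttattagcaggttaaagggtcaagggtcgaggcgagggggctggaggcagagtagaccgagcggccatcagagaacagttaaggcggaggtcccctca
Both strands were searched for AAAGTCC, the core of the HNF4A site, AGGTCA, the core of many nuclear receptor sites, TGACGT, the core of the cyclic AMP response element, and TATAAA. The last of these motifs stood 31 bases before this start of Apoa5, and matched in windows of Apoa2, Apob and Apoe, against 13.6% of the 32851 windows of all genes. The HNF4A core and the nuclear receptor core matched in the other start-site window of Apoa2, against 4.21% and 16.3% of all windows, and the cyclic AMP core in the window of Mttp, against 7.51%. The windows of Apoa4, Apoa1 and Apom held none of these 4 sets of letters, which says only that these letters are not in these windows. The windows follow RefSeq starts, which differ from the gene bounds given above. The Apom window lies almost wholly inside those bounds and the Apoa4 window largely so, and sequence upstream of those bounds was not searched for Apom.

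Measured per length as transcripts per 1000000 (TPM), Apoe, the ligand through which remnant particles are cleared, and Apoa2 were the leading members in every group. At 24 weeks Apoe averaged 35432 TPM with semaglutide, 24196 TPM after chow reversal, 33607 TPM with vehicle and 21422 TPM in chow-fed mice. Apoa2 averaged 28094, 22138, 21328 and 23118 TPM in the same groups. Across the 10 groups Apoa1 averaged 11836 to 16770.1 TPM, Apoc3 2803 to 3979 TPM, Apoa5 1104 to 1497 TPM, Apob 533 to 887 TPM, Apom 195 to 363 TPM and Mttp 62.5 to 90.9 TPM. Apoa4 moved through this order. By mean TPM at 24 weeks it ranked 74 among all genes with semaglutide, 152 after chow reversal, 34 with vehicle and 539 on chow, whereas Apoe stayed within ranks 2 to 6 in all 10 groups. Together the 9 genes took 6.03% ± 1.31 (SD, n = 8) of counts with semaglutide at 24 weeks, 4.62% ± 0.866 (n = 8) after chow reversal, 5.49% ± 1.64 (n = 7) with vehicle and 4.27% ± 0.452 (n = 7) on chow. TPM and shares of counts lack the scaling between libraries used in the tests below, so their group differences can depart from the tested ones. On the scaled counts Apoe averaged 28398 CPM with vehicle and 25308 CPM on chow at 24 weeks.

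The libraries held 8883190 to 37631125 counts (median 16406976), and they differed in how expression depended on transcript length. The length slope of a library was the slope of a gene's log2 deviation from its mean over libraries against the log2 of its exon length. It was taken over 9992 genes with a mean log2 CPM above 2, leaving out the members and all genes of the other lists and cell type markers. It ranged from -0.28 to 0.17, with 9 libraries below -0.15, and a negative slope means that short transcripts read high. With group means removed, the levels of Apoa2 (r = -0.91, exon length 537 bases), Apoc3 (-0.91), Apom (-0.87), Apoa1 (-0.85), Apoe (-0.77) and Apoa5 (-0.62) ran against the slope over the 77 libraries. Apob (r = 0.88, exon length 13934 bases) and Mttp (0.79) ran with it, and Apoa4 was the member least tied to it (-0.35). All genes were measured in these same libraries, and r spanned -0.80 to 0.78 between the 5th and 95th percentile of tested genes. The group medians of the slope were 0.06, -0.05 and -0.07 with semaglutide at 8, 16 and 24 weeks, -0.06, 0.01 and 0.04 after chow reversal, 0.12, 0.04 and 0.05 with vehicle, and 0.03 on chow. Within groups, a slope lower by 0.1 went with a level higher by 0.38 for Apom, 0.37 for Apoa2, 0.34 for Apoa1 and 0.22 for Apoa4 on the log2 scale. The fit with the slope as a covariate was added after the data were seen, and its value, like that of any other alternative, stands beside a called member where it ended the call or moved the value by over 1.5 times.

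**Figure D1:**
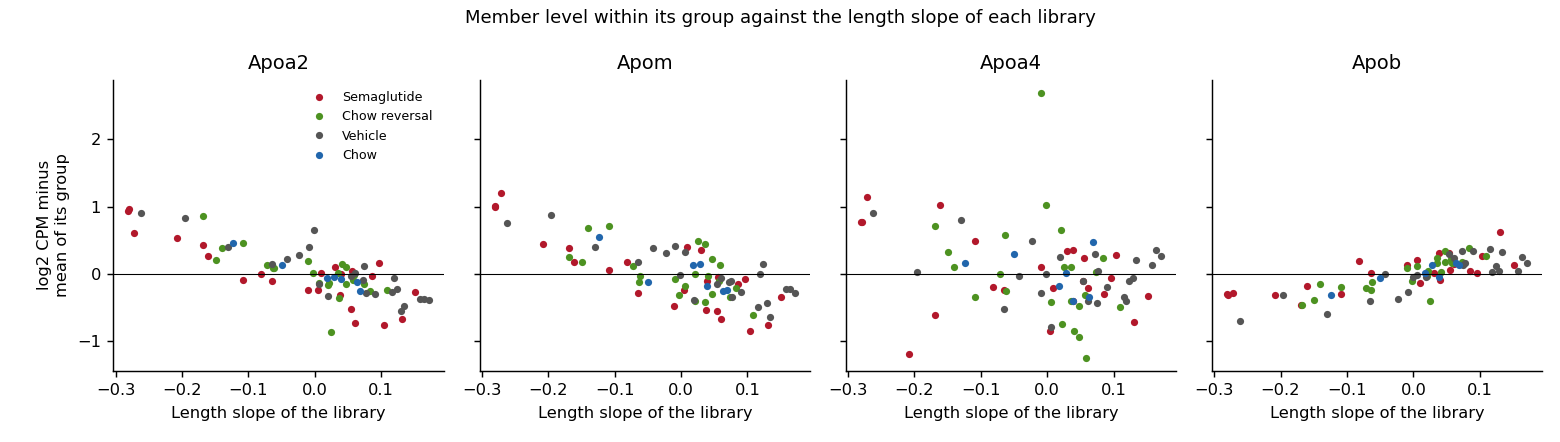
Log2 CPM of Apoa2, Apom, Apoa4 and Apob in each of 77 mice minus the mean of its own group (vertical axis, log2 units) against the length slope of its library (horizontal axis), with colours for the treatments. Apoa2 and Apom run down along the axis (r = -0.91 and -0.87), Apob runs up (r = 0.88) and Apoa4 scatters (r = -0.35).

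Expression was compared on counts scaled by trimmed mean of M-values (TMM) and given as CPM. A gene was called at an adjusted p below 0.05 in edgeR's quasi-likelihood test, with Benjamini-Hochberg adjustment over 14904 genes. With semaglutide against vehicle, 2, 2 and 5 of the 9 members were called at 8, 16 and 24 weeks, where 5.75%, 12.2% and 24.3% of all tested genes were called. At 24 weeks 4 members were higher and 1 lower, against 10.8% and 13.6% of all genes. With chow reversal against vehicle, 4, 3 and 4 members were called, against 32.1%, 28.2% and 36.1% of all genes, so these member counts lie near the background. The median log2 fold change of the 9 members was 0.23, 0.18 and 0.45 with semaglutide and 0.40, 0.34 and 0.31 after chow reversal, with medians over all genes between -0.03 and 0.04. In vehicle-treated DIO-MASH mice against chow-fed mice 6 members were called (47.8% of all genes), of which 1 was higher (25.8%) and 5 lower (22%). Semaglutide against chow called 4 members (31.4%) and chow reversal against chow 1 (6.63%). Scaled by library totals, which moved the median of all genes by up to 0.42, 3 members were called between vehicle and chow (58.1% of all genes) and 2 between semaglutide and chow (35.7%). All comparisons with vehicle at one time share the same vehicle mice.

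**Figure D2:**
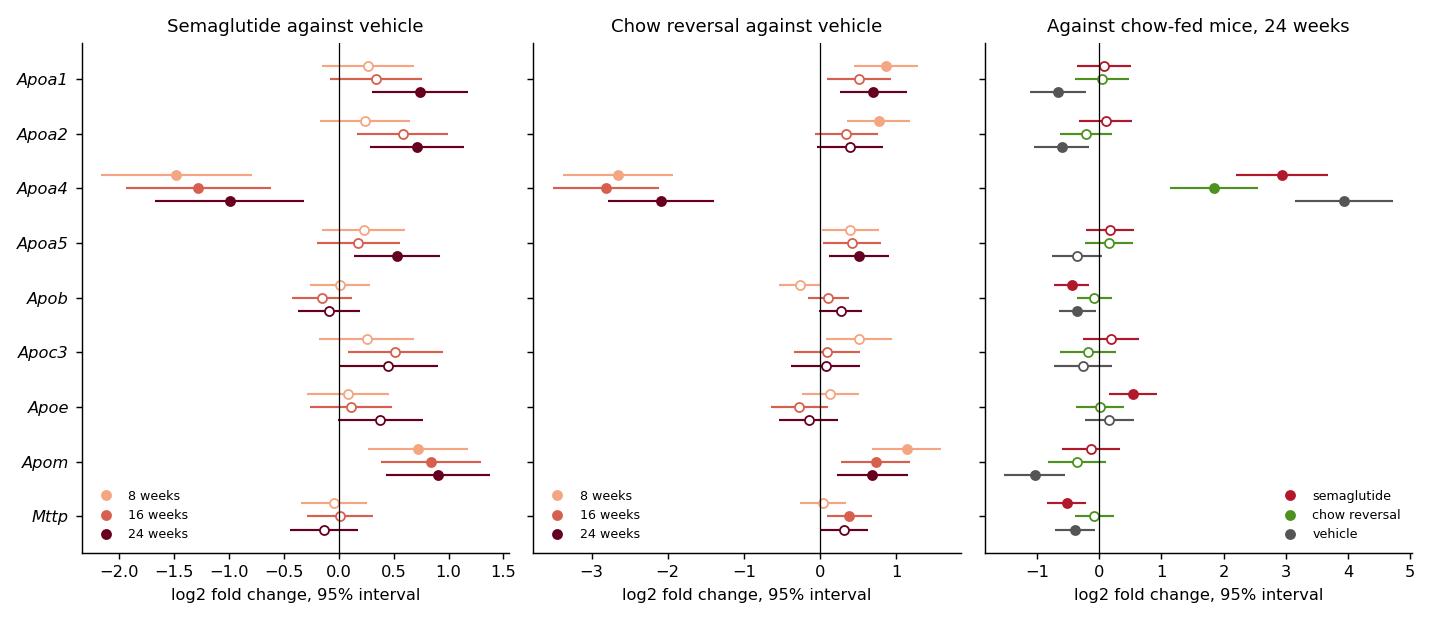
Log2 fold change of each of the 9 members with its 95% confidence interval, by comparison, from edgeR, where filled symbols passed an adjusted p of 0.05 and open symbols did not. Apoa4 stands apart below 0 with semaglutide (-1.48, -1.28 and -0.99) and after chow reversal, and far above 0 in vehicle-treated against chow-fed mice (3.94), while the values of Apob and Mttp in that last comparison (-0.35 and -0.39) become 0.08 and 0.04 when scaled by library totals.

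Apoa4, a lipid-binding protein of triglyceride-rich particles and HDL that is made mainly in the intestine and, in mice, also in the fatty liver, was the member with the widest differences. At 24 weeks vehicle-treated DIO-MASH mice had 1576 to 5139.7 CPM (median 2815), against 141 to 261 CPM (median 189) in chow-fed mice. Every vehicle-treated DIO-MASH mouse lay above every chow-fed mouse. Apoa4 was 15.3-fold higher with the MASH diet (log2 fold change 3.94 ± 0.39 (SE), 95% CI 3.15 to 4.72, adjusted p = 1.65e-13). Apoa4 and Apom were the members whose groups did not overlap in this comparison, against 22.3% of all genes.

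Semaglutide-treated mice had less Apoa4 than vehicle-treated mice at all 3 times. At 8 weeks semaglutide-treated mice had 681 to 1093 CPM (median 815), against 1755 to 3336 CPM (median 2377) in vehicle-treated mice. At 16 weeks the range was 691 to 2125 CPM (median 1338) with semaglutide and 2408 to 5603 CPM (median 3093) with vehicle. At both times every semaglutide-treated mouse lay below every vehicle-treated mouse, which held for no other member and for 1.85% and 0.899% of all genes in either direction. At 24 weeks the range was 567 to 2858 CPM (median 1123) with semaglutide and 1576 to 5139.7 CPM (median 2815) with vehicle. Here 6 of 8 semaglutide-treated mice lay below every vehicle-treated mouse, and no member had groups that did not overlap (4.12% of all genes). The levels were 2.79-fold, 2.43-fold and 1.99-fold lower at 8, 16 and 24 weeks. The log2 fold changes were -1.48 ± 0.34 (SE) at 8 weeks (adjusted p = 0.00357), -1.28 ± 0.33 at 16 weeks (adjusted p = 0.00744) and -0.99 ± 0.34 at 24 weeks (adjusted p = 0.0247). With the length slope as a covariate they were -1.55, -1.48 and -1.23, with adjusted p of 0.000712, 0.000964 and 0.00346. Without 3 semaglutide libraries numbered in a separate series, 1 of them at 24 weeks, the 24-week value was -0.85 (adjusted p = 0.0609) and the call was lost.

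After chow reversal Apoa4 was lower still. At 8, 16 and 24 weeks chow reversal mice had medians of 405, 343 and 384 CPM, against 2377, 3093 and 2815 CPM in vehicle-treated mice. The ranges were 272 to 475 CPM at 8 weeks and 255.98 to 875 CPM at 16 weeks, all below the vehicle range. At 8 weeks Apoa4 and Apom, and at 16 weeks Apoa4, had groups that did not overlap, against 11.1% and 7.75% of all genes. At 24 weeks 7 chow reversal mice had 187 to 728 CPM and 1 mouse had 2869 CPM, within the vehicle range, so no member's groups were apart (6.91% of all genes). The log2 fold changes were -2.66 ± 0.36 (SE, adjusted p = 3.44e-08), -2.81 ± 0.35 (adjusted p = 1.86e-09) and -2.09 ± 0.35 (adjusted p = 1.29e-06). Without that mouse, left out after its value was seen, the 24-week value was -2.96.

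**Figure D3:**
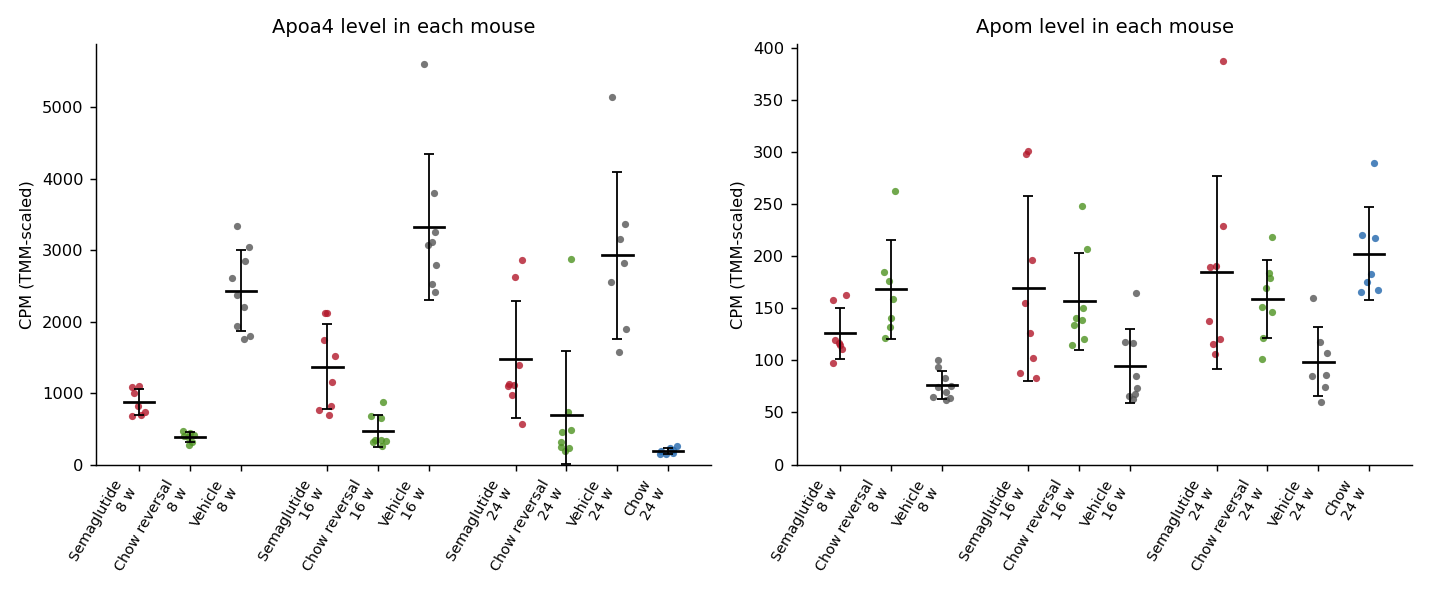
CPM of Apoa4 and Apom in each mouse by group and week, where points are mice, lines are means and bars are 1 SD, cut at 0 where the SD exceeds the mean. Apoa4 lies at 567 to 2858 CPM with semaglutide at 24 weeks, at 187 to 728 CPM after chow reversal except for 1 mouse at 2869 CPM, at 1576 to 5139.7 CPM with vehicle and at 141 to 261 CPM on chow, and Apom runs the other way.

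Apoa4 was higher with semaglutide than after chow reversal. At 8 weeks all 7 semaglutide-treated mice lay above every chow reversal mouse, which held for no other member and for 4.35% of all genes in either direction. Apoa4 was 2.26-fold, 2.89-fold and 2.14-fold higher with semaglutide than after chow reversal at 8, 16 and 24 weeks (adjusted p = 0.0309, 0.0011 and 0.0168), the first with an adjusted p of 0.0522 when no filter on low counts was used. Of the 9 members 1, 1 and 3 were called between these groups, against 6.16%, 9.8% and 16.5% of all genes. At 24 weeks the log2 fold change was 1.09 ± 0.33 (SE), 1.96 without the chow reversal mouse at 2869 CPM, and 0.85 (adjusted p = 0.0641) with the length slope as a covariate. Without the 9 libraries of steepest slope it was 0.74 (adjusted p = 0.166), and with only these groups in the fit its adjusted p was 0.217.

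Neither treatment brought Apoa4 to the chow level at 24 weeks. All 8 semaglutide-treated mice lay above every chow-fed mouse (6.76% of all genes had groups that did not overlap), and Apoa4 was 7.68-fold higher (log2 fold change 2.94 ± 0.37 (SE), adjusted p = 2.37e-09). In chow reversal mice, 5 of 8 lay above every chow-fed mouse and Apoa4 was 3.60-fold higher (1.85 ± 0.35, adjusted p = 0.00028). That value was 0.98 (adjusted p = 0.0191) without the mouse at 2869 CPM, and its adjusted p was 0.107 when fitted on the compared groups alone. Apoa4 was the one member called between chow reversal and chow.

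The chow reversal mouse with high Apoa4 lay outside the vehicle range in hepatocyte and macrophage markers and inside it in Cgref1, the gene whose level followed Apoa4 most closely over all libraries. Cgref1 was at 9.51 CPM in this mouse, against 0.387 to 2.41 CPM in the other 7 chow reversal mice and 6.35 to 16.4 CPM with vehicle. The summed hepatocyte markers of this mouse were 121385 CPM, against 103753 to 127180 CPM in the other 7 chow reversal mice and 65377 to 83583 CPM with vehicle. Its summed macrophage markers were 103 CPM, below the 127 to 602 CPM of the other 7 and the 824 to 1312 CPM with vehicle. Apoa5 was also at its group's highest in this mouse, at 3138 CPM against 1152 to 2174 CPM in the others. Apoc3 was too, by a small margin, at 2222 CPM against 910 to 2193 CPM.

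Set against its neighbour Apoa1 within each library, Apoa4 kept the same order of treatments at each time. The ratio of Apoa4 to Apoa1 CPM averaged 0.13, 0.162 and 0.141 with semaglutide at 8, 16 and 24 weeks, 0.0379, 0.0467 and 0.0631 after chow reversal, 0.459, 0.527 and 0.509 with vehicle and 0.0205 on chow. At 24 weeks it ran from 0.069 to 0.216 with semaglutide, 0.0235 to 0.237 after chow reversal, 0.275 to 0.746 with vehicle and 0.0149 to 0.0314 on chow. At this time no semaglutide or chow reversal mouse reached the lowest vehicle ratio. At 16 weeks the highest semaglutide ratio, 0.301, lay above the lowest vehicle ratio, 0.229. Apoa1 was itself called higher with both treatments at 24 weeks, so the ratio holds the differences of both genes. Within groups Apoa1 was tied to the length slope more closely than Apoa4 (r = -0.85 and -0.35), so the ratio also varies with the slope of its library. The ratio is a description and was not tested.

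**Figure D4:**
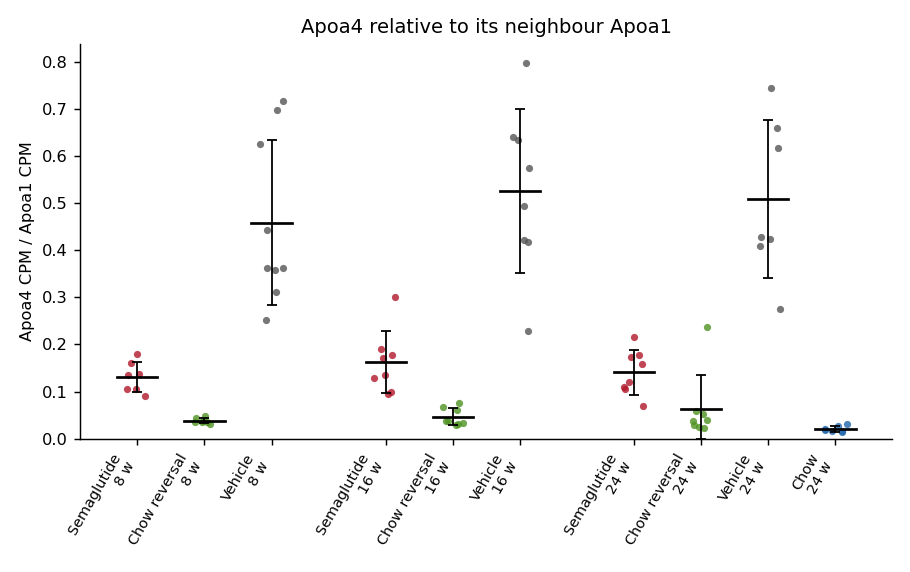
Ratio of Apoa4 to Apoa1 CPM within each library, by group and week, with points for mice. At 24 weeks the ratio lies at 0.069 to 0.216 with semaglutide, 0.0235 to 0.237 after chow reversal, 0.275 to 0.746 with vehicle and 0.0149 to 0.0314 on chow.

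Apom, the HDL protein that carries sphingosine-1-phosphate, was higher with both treatments at every time. At 8 weeks semaglutide-treated mice had 97.4 to 163 CPM (median 117), against 61.8 to 101 CPM (median 74.2) in vehicle-treated mice. At 16 weeks the range was 83.4 to 302 CPM (median 141) with semaglutide and 63.4 to 164 CPM (median 79.5) with vehicle. At 24 weeks it was 106 to 388 CPM (median 164) with semaglutide and 60.4 to 160.1 CPM (median 86.5) with vehicle. The groups overlapped at each time, with 6 of 7, 3 of 8 and 4 of 8 semaglutide-treated mice above every vehicle-treated mouse. The log2 fold changes of Apom were 0.72 ± 0.23 (SE, adjusted p = 0.0429), 0.84 ± 0.23 at 16 weeks (adjusted p = 0.00984) and 0.90 ± 0.24 at 24 weeks (adjusted p = 0.00337). With the length slope as a covariate they were 0.64, 0.46 and 0.50 and stayed called (adjusted p = 7.37e-05, 0.00436 and 0.00158), and without the libraries of steepest slope the 24-week value was 0.60 (adjusted p = 0.0263). The 8-week call was lost in 3 of 10 alternatives (scaling by relative log expression (RLE) factors, no filter on low counts, and a block on sets of library numbers, with adjusted p up to 0.0668). The 16-week call was lost in 4 of 10 (the same block, only the compared groups, without the separately numbered libraries, and without those of steepest slope), with adjusted p up to 0.216 and a value of 0.41 in the last.

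After chow reversal Apom had 121 to 263 CPM at 8 weeks (median 159), above the 61.8 to 101 CPM of every vehicle-treated mouse. The log2 fold changes were 1.14 ± 0.23 (SE, adjusted p = 6.43e-05), 0.73 ± 0.23 (adjusted p = 0.0101) and 0.69 ± 0.24 (adjusted p = 0.0174) at 8, 16 and 24 weeks. With the length slope as a covariate the 8-week value was 0.64 (adjusted p = 2.16e-05), and with library totals the 16-week value was 0.48 (adjusted p = 0.0436) and the 24-week value 0.41 (adjusted p = 0.102). Vehicle-treated DIO-MASH mice had 60.4 to 160.1 CPM of Apom, against 166 to 289 CPM (median 183) in chow-fed mice. All 7 lay below every chow-fed mouse, and Apom was 2.05-fold lower with the MASH diet (-1.04 ± 0.24, adjusted p = 0.000271), with a value of -0.63 (adjusted p = 0.00832) with library totals. Semaglutide and chow reversal did not differ detectably from each other in Apom at 24 weeks (0.22, 95% CI -0.24 to 0.67). In the 10 alternatives this value ran from -0.32 to 0.23 and was called in 0. Between semaglutide and chow at 24 weeks Apom was not called as reported, but it was called in 2 of 10 alternatives. There its value ran from -0.61 to 0.01, with a lowest adjusted p of 7.08e-05.

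Apoa1, the protein on which HDL is built, was called higher with semaglutide at 24 weeks. The lowest, median and highest mice at 24 weeks had 6428, 9115 and 17998 CPM with semaglutide, against 3723, 5443 and 12014 CPM with vehicle. The groups overlapped, with 2 of 8 semaglutide-treated mice above every vehicle-treated mouse, and the log2 fold change was 0.74 ± 0.22 (SE, adjusted p = 0.00958, or 0.0555 when fitted on the compared groups alone). The 24-week value was 0.46 (adjusted p = 0.00172) with the length slope as a covariate and 0.48 (adjusted p = 0.0445) with library totals. At 8 and 16 weeks it was 0.27 (95% CI -0.15 to 0.69) and 0.34 (95% CI -0.08 to 0.76). Whether the effect on Apoa1 differed between 24 and 8 weeks was tested directly, with a difference of 0.47 (95% CI -0.14 to 1.07, adjusted p = 0.967). After chow reversal Apoa1 had 7393 to 13168 CPM at 8 weeks, against 4077 to 7696 CPM with vehicle. It was higher at 8 weeks (0.86 ± 0.21, adjusted p = 0.00101) and 24 weeks (0.70 ± 0.22, adjusted p = 0.0086), with 0.51 at 16 weeks (adjusted p = 0.0576). The 8-week value was 0.45 (adjusted p = 0.00133) with the length slope as a covariate, and the 24-week value was 0.41 (adjusted p = 0.0763) with library totals. With the MASH diet Apoa1 was lower than on chow (-0.65 ± 0.23, adjusted p = 0.0127), but the value was -0.24 (adjusted p = 0.299) when scaled by library totals.

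Apoa2, the other main protein of HDL, was also called higher with semaglutide at 24 weeks. At 24 weeks it had 4244 to 10845.5 CPM (median 6822) with semaglutide, against 3109 to 8091 CPM (median 4059.7) with vehicle. The groups overlapped and Apoa2 was higher (log2 fold change 0.71 ± 0.22 (SE), adjusted p = 0.0107), with values of 0.39 (adjusted p = 0.000796) with the length slope as a covariate and 0.47 (adjusted p = 0.0404) with library totals. At 16 weeks the value was 0.58 (adjusted p = 0.051 in edgeR and 0.0425 in DESeq2). After chow reversal Apoa2 was higher at 8 weeks (0.77 ± 0.21, adjusted p = 0.00275), and at 16 and 24 weeks its values were 0.34 and 0.39 (adjusted p = 0.222 and 0.148). The 8-week value was 0.34 (adjusted p = 0.00171) with the slope as a covariate and 0.50 (adjusted p = 0.0178) with library totals, and the covariate brought the 16- and 24-week values, 0.36 and 0.49, past the threshold (adjusted p = 0.000471 and 4.42e-06). With the MASH diet it was lower than on chow (-0.60 ± 0.22, adjusted p = 0.0195), and -0.19 (adjusted p = 0.394) with library totals.

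Apoa5 and Apoc3 act in opposite directions on lipoprotein lipase, which Apoa5 promotes and Apoc3 restrains. Apoa5 had 1124 to 3454 CPM (median 1517) with semaglutide at 24 weeks, against 899 to 1656 CPM (median 1195) with vehicle. The groups overlapped, and the log2 fold change was 0.53 ± 0.20 (SE, adjusted p = 0.0401). This call was lost in 6 of 10 alternatives, which were the length slope as a covariate (0.28, adjusted p = 0.186), library totals (0.26, adjusted p = 0.238), the block on library numbers (0.45, adjusted p = 0.0892), and the fits with no filter, with only the compared groups and without the libraries of steepest slope (adjusted p = 0.0851, 0.102 and 0.153). After chow reversal Apoa5 was called at 24 weeks (0.51 ± 0.20, adjusted p = 0.0337). This call was lost in 5 of 10 alternatives, which were library totals (0.20, adjusted p = 0.367), the block (0.45, adjusted p = 0.0546), no filter (adjusted p = 0.0587), only the compared groups (adjusted p = 0.0816) and the fit without the mouse with high Apoa4 (0.34, adjusted p = 0.177). Apoc3 had 1063 to 3507 CPM (median 1548) with semaglutide at 24 weeks, against 977 to 2310.3 CPM (median 1299) with vehicle. Apoc3 was called in 0 of the 15 comparisons. Its 24-week difference with semaglutide was 0.45 on the log2 scale (95% CI -0.003 to 0.90), and its difference between vehicle and chow, -0.25 (adjusted p = 0.386), was -0.29 (adjusted p = 0.0106) with the length slope as a covariate.

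Apob, which forms the body of each VLDL particle, had 2743 to 4259 CPM (median 3608) with semaglutide at 24 weeks, against 2205 to 4530.3 CPM (median 3991) with vehicle. The groups overlapped throughout, and the log2 fold changes with semaglutide were 0.01 (95% CI -0.26 to 0.28), -0.16 (95% CI -0.43 to 0.12) and -0.09 (95% CI -0.37 to 0.19) at 8, 16 and 24 weeks. Mttp had 123 to 240.2 CPM (median 197) with semaglutide at 24 weeks, against 114 to 227 CPM (median 218) with vehicle. Its values were -0.05 (95% CI -0.35 to 0.25), 0.01 (95% CI -0.29 to 0.31) and -0.13 (95% CI -0.44 to 0.17). Compared with chow-fed mice, Apob was lower in vehicle-treated mice (-0.35 ± 0.15 (SE), adjusted p = 0.0416) and Mttp likewise (-0.39 ± 0.16, adjusted p = 0.0387), but both signs turned with library totals, to 0.08 and 0.04. The Apob call was also lost with no filter (adjusted p = 0.0658) and without the libraries of steepest slope (-0.26, adjusted p = 0.0786). Against chow, semaglutide-treated mice had lower Apob (-0.44 ± 0.14, adjusted p = 0.0123) and Mttp (-0.52 ± 0.15, adjusted p = 0.00676), and with library totals these were -0.24 (adjusted p = 0.231) and -0.32 (adjusted p = 0.152). They were -0.30 and -0.31 without the libraries of steepest slope (adjusted p = 0.0902 and 0.0728), and -0.23 and -0.33 with the slope as a covariate (adjusted p = 0.0141 and 0.00619). Chow reversal raised Mttp at 16 weeks (0.38 ± 0.15, adjusted p = 0.0446), a call lost with library totals (0.13, adjusted p = 0.555) and with no filter (adjusted p = 0.063). Apob was not called between chow reversal and vehicle (-0.26, 0.11 and 0.27 at 8, 16 and 24 weeks). With library totals its 8-week value was -0.53 (adjusted p = 0.00416). At 24 weeks Mttp was lower with semaglutide than after chow reversal (-0.45 ± 0.15, adjusted p = 0.0309), a call lost in 4 of 10 alternatives, with -0.21 (adjusted p = 0.136) under the slope covariate, -0.27 (adjusted p = 0.18) without the libraries of steepest slope, -0.35 (adjusted p = 0.14) with library totals and an adjusted p of 0.126 on the compared groups alone.

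Apoe had 22493 to 59751 CPM (median 32737) with semaglutide at 24 weeks, 17747 to 40789 CPM (median 25113) after chow reversal, 20104 to 53039 CPM (median 24277) with vehicle and 20659.7 to 32544 CPM (median 24344) on chow. All groups overlapped. Semaglutide against vehicle gave log2 fold changes of 0.08 (95% CI -0.29 to 0.46), 0.11 (95% CI -0.26 to 0.48) and 0.38 (95% CI -0.01 to 0.77) at 8, 16 and 24 weeks, none of them called. At 24 weeks Apoe was higher with semaglutide than after chow reversal (0.53 ± 0.19 (SE), adjusted p = 0.0429) and than on chow (0.54 ± 0.20, adjusted p = 0.0265). With the length slope as a covariate these were 0.21 (adjusted p = 0.249) and 0.26 (adjusted p = 0.0923), and with no filter their adjusted p was 0.125 and 0.0901. The first call was also lost on the compared groups alone (adjusted p = 0.153) and without the chow reversal mouse with high Apoa4 (adjusted p = 0.0648). Between vehicle and chow the difference was 0.17 (adjusted p = 0.525), and 0.58 (adjusted p = 0.00284) with library totals. Apoe was not called between chow reversal and vehicle. With library totals it was called lower after chow reversal at 16 and 24 weeks (-0.50 and -0.44, adjusted p = 0.00918 and 0.0246).

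Time on treatment made no member pass the threshold. In vehicle-treated mice at 24 against 8 weeks 0 members were called by edgeR and 0 by DESeq2, against 0.792% of all genes, and at an unadjusted p below 0.05 each tool found 1 (11.6% of all genes). This was Apob (-0.36, adjusted p = 0.278). For the semaglutide effect at 24 minus 8 weeks, 0 members were called by either tool (0.0604% of all genes) and 0 passed an unadjusted p of 0.05 (4.57%). For the chow reversal effect, 0 were called by either tool (0.215%) and 1 passed unadjusted in each (13.6%), again Apob (0.53, adjusted p = 0.267). The Apoa4 effect of semaglutide at 24 minus 8 weeks was 0.49 (95% CI -0.46 to 1.43).

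Of 12 other genes named after apolipoproteins, 10 could be tested. With semaglutide 2, 3 and 4 were higher and 0, 1 and 1 lower at 8, 16 and 24 weeks. The median change at 24 weeks was 0.33 on the log2 scale. Of all tested genes 5.75%, 12.2% and 24.3% were called at these times, with 10.8% higher and 13.6% lower at 24 weeks. Apoh, a phospholipid-binding plasma protein, was higher at 24 weeks (0.67, adjusted p = 0.000186), as was Apoc1 (0.81, adjusted p = 0.0213), Apoc4 (0.75, adjusted p = 0.0151) and Apof (0.35, adjusted p = 0.00605). Apobr, which encodes a receptor and not an apolipoprotein, was lower (-0.71, adjusted p = 0.00154). Apoc2, the activator of lipoprotein lipase, followed Apoa4 in part. It averaged 562 ± 176 CPM with vehicle at 24 weeks, against 123 ± 33.6 CPM on chow (SD, n = 7 each), a log2 fold change of 2.19 (adjusted p = 1.91e-10). Chow reversal lowered Apoc2 (-1.92, adjusted p = 5.1e-09), and semaglutide gave -0.26 (adjusted p = 0.466). Calls of genes outside the members, here and below, come from the TMM-scaled fit to all groups alone. Their dependence on the length slope or on the scaling is not given here.

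Of 15 genes of VLDL assembly and secretion, 3, 3 and 4 were higher and 1, 1 and 2 lower with semaglutide at 8, 16 and 24 weeks. The shares of all tested genes called at these times were 5.75%, 12.2% and 24.3%. Dgat2, which makes triglyceride, was higher at all 3 times (0.41, 0.37 and 0.55), as was Tm6sf2, needed to lipidate VLDL (0.57, 0.56 and 0.65). Apobec1, which edits Apob mRNA, was lower (-0.41, -0.51 and -0.62). With the MASH diet 1 was higher and 9 were lower than on chow (25.8% and 22% of all genes), with Apobec1 at 1.32, Mia3 at -0.74 and Sort1 at -0.74. Of 9 lipase genes, 1, 1 and 3 were higher and 0, 0 and 1 lower with semaglutide, where 5.75%, 12.2% and 24.3% of all genes were called. Lipc, hepatic lipase, was higher at all 3 times (0.61, 0.50 and 0.91), with 177 ± 40.9 CPM (n = 8) with semaglutide and 94.1 ± 12.9 CPM (SD, n = 7) with vehicle at 24 weeks.

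Of 6 genes of cholesterol efflux and HDL maturation, 3, 1 and 4 were higher and 0, 1 and 1 lower with semaglutide at 8, 16 and 24 weeks. The shares of all genes called at these times were 5.75%, 12.2% and 24.3%. Pon1, an HDL-bound esterase, was higher at all 3 times (0.51, 0.76 and 0.93), as Lcat, which esterifies HDL cholesterol, was at 8 and 24 weeks (0.49 and 0.68). The sterol exporter Abcg5 was higher with semaglutide at 24 weeks (0.54) and lower after chow reversal (-1.61). Of 14 transcription factors that act on these genes, 2, 0 and 8 were higher and 0 lower with semaglutide, beside the same shares of all genes. At 24 weeks 10.8% of all genes were higher and 13.6% lower. With semaglutide Hnf4a stood at 0.54 and 0.53 and Nr5a2 at 0.29 and 0.26 at 8 and 24 weeks. With the MASH diet 0 of these 14 were higher and 6 lower (25.8% and 22% of all genes), among them Hnf4a (-0.81), Nr5a2 (-0.63) and Rora (-0.66).

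Markers of cell types moved with the same groups. All 10 hepatocyte markers were measured, with summed medians at 24 weeks of 107821 CPM with semaglutide, 114000 CPM after chow reversal, 72043 CPM with vehicle and 129938 CPM on chow, and with semaglutide 7 of 10 were higher and 0 lower. At that time 10.8% of all tested genes were higher and 13.6% lower with semaglutide. The macrophage markers summed to medians of 586, 220.03, 969 and 151 CPM in the same groups, with 1 higher and 6 lower of 10 with semaglutide. In whole liver, fewer cells of a type and less RNA per cell cannot be told apart, and the part of these shifts in the members' differences was not tested. Of stellate cell markers 0 were higher and 3 of 8 lower with semaglutide at 24 weeks, of sinusoidal endothelium 1 and 1 of 6, of cholangiocytes 0 and 1 of 5 and of erythroid cells 1 and 0 of 3. Of 4 T cell and 3 B cell markers, 0 were called with semaglutide at 24 weeks by edgeR. The enterocyte markers Sis, Lct, Alpi and Rbp2 were too low to test, as were all 4 exocrine pancreas markers and 3 of 4 adipocyte markers, of which Fabp4 was lower with semaglutide at 24 weeks. The enterocyte markers tested, Fabp2 and Vil1, were not called with semaglutide at any time.

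By correlation of log2 CPM over all 77 libraries among 13335 genes, the genes most like Apoa4 were Cgref1 (r = 0.91), Anxa2 (0.90) and S100a11 (0.89), and within groups these were 0.66, 0.53 and 0.51. Those most like Apom were Ttc36 (0.91), Vkorc1 and Urah, and those most like Apoa1 were Ttc36 (0.93), Proc and Ccs. Apoa2 was closest to Ndufb9 (0.98), Apoc3 to Cox5b (0.95), Apob to Arhgef12 (0.93), Apoe to Fcgrt (0.92), Mttp to Map7 (0.88) and Apoa5 to Proc (0.78). These libraries share their length slopes. Apoa2 and Apoc3 correlated at 0.92 within groups and at 0.53 once the slope was removed, and Apoa1 and Apoa4, neighbours on chromosome 9, at 0.46 and 0.33.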

How the data were processed

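Liver RNA was sequenced from 77 mice, 1 library each, with a directional kit. The deposited table holds estimated counts per gene that the authors made, per the submitters' processing notes, with salmon 1.2.0 and STAR 2.7.3a on GRCm38. The annotation release and strand setting are not given in the sources used here. The values, of which 7.55% were fractional, were rounded to whole numbers, and symbols came from GENCODE for 55227 of 55487 genes. Groups came from the treatment labels. In R 4.3.3, edgeR 4.0.16 (TMM factors of 0.793 to 1.31, filterByExpr by group, quasi-likelihood test) was fitted to all 10 groups at once, leaving 14904 genes, with Benjamini-Hochberg adjusted p below 0.05 as the call. Log2 CPM used a prior count of 2, and TPM used exon lengths of the annotation. DESeq2 1.42.0 was an alternative. The test was checked on simulated counts drawn independently for each gene. These had no length slope, so the check does not cover the slope. The members and gene lists were chosen with earlier results of these data known. Members were always named, and a gene of another list where it was called with semaglutide at 2 or more times or was among the 3 smallest p against chow, with a few more named after their values were seen. P-values measure the spread between mice. Sequences came from RefSeq GRCm38.p6. A list of receptor and uptake genes is not reported here.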

Additional observations from a re-analysis of the deposited data

Results flagged for a closer look

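In 15 of 90 sets of 1 member in 1 group, the highest mouse lay further from the next than Dixon's 95% critical value allows. That value is set for about 1 in 20 independent sets of normal values, with either end counted. The sets here were CPM values and shared libraries, so that rate does not carry over to them. Of the 15 flagged values, 11 fell in the library with the lowest length slope of its group, and all came from 8 libraries. Their CPM were 14197 and 12014 for Apoa1 with vehicle at 16 and 24 weeks. For Apoa2 they were 8731 and 10216 after chow reversal at 16 and 24 weeks and 8091 with vehicle at 24 weeks. For Apoa4 they were 2869 after chow reversal at 24 weeks and 5603 with vehicle at 16 weeks, and for Apoa5 2598 and 3454 with semaglutide at 16 and 24 weeks. For Apoc3 they were 2140.2 after chow reversal at 16 weeks and 2310.3 with vehicle at 24 weeks. For Apoe they were 72638 with semaglutide at 16 weeks, 40789 after chow reversal at 24 weeks and 53039 with vehicle at 24 weeks, and for Apom 388 with semaglutide at 24 weeks.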

How the results depend on the processing

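Of 135 member values, 134 kept their side of the threshold, and the called ones their direction, with RLE factors, 133 in DESeq2, 132 without the separately numbered libraries, 130 with a block on sets of library numbers, 127 without a filter, 123 with only the compared groups, 119 with library totals and 115 with the length slope as a covariate. The last, the fit without the 9 libraries of steepest slope (115) and that without 1 chow reversal mouse (133) were added after seeing the data. The members called are given here with the share of all genes called in the same fit. With semaglutide against vehicle at 8 weeks (2 as reported, 5.75%) they were 1 with RLE factors (5.64%), the block (4.96%) or no filter (1.74%). At 16 weeks (2, 12.2%) they were 1 with the block (4.78%), only the compared groups (3.59%), without steep-slope libraries (5.23%) or without separately numbered ones (4.95%), and at 24 weeks (5, 24.3%) 3 with only the compared groups (17.2%). For chow reversal against vehicle they were 6 at 16 weeks (3, 28.2%) with the slope covariate (36.9%) or without steep-slope libraries (35.6%), and at 24 weeks (4, 36.1%) 7 with the covariate (45%) and 2 with library totals (41.2%). For semaglutide against chow reversal at 8 weeks (1, 6.16%) they were 2 with the covariate (6.15%), 0 with no filter (1.88%) and 3 with only the compared groups (19.7%) or without steep-slope libraries (14.8%). At 16 weeks (1, 9.8%) they were 4 with the covariate (12%) and 2 without steep-slope libraries (6.29%), and at 24 weeks (3, 16.5%) 1 with either of these (12.2% and 11.6%) and 0 with only the compared groups (3.15%). Library totals gave 3 for vehicle against chow (6, with 58.1% against 47.8%) and 2 for semaglutide against chow (4, with 35.7% against 31.4%), and only the compared groups gave 0 for chow reversal against chow (1, with 0.839% against 6.63%). Reversed values were Apoa1 for semaglutide against chow reversal at 24 weeks (-0.36) and Apoa2 for semaglutide against chow (-0.28) with the covariate, and Apob (0.081) and Mttp (0.041) for vehicle against chow with library totals. Library totals moved the median of all genes by up to 0.42 and put 10.5% of all semaglutide calls at 24 weeks on the higher side (44.2% as reported), 11.2% for chow reversal (47.03%) and 89.8% for vehicle against chow (54.1%). Over all genes, calls for semaglutide against vehicle were 857 at 8 weeks (558 with no filter, 2138 with only the compared groups) and 1824 at 16 weeks (535 with only the compared groups), and with only the compared groups semaglutide against chow reversal at 24 weeks had 470 (2457) and chow reversal against chow 125 (988). The cause of these changes was not tested. Each mouse was sampled once, so mice were not paired. The block on library numbers, which run through the groups in sets of 10, ended the calls of Apom with semaglutide at 8 and 16 weeks (0.63 and 0.64, adjusted p = 0.0668 and 0.0732) and of Apoa5 at 24 weeks with semaglutide and after chow reversal, added Apoa1 after chow reversal at 16 weeks (0.55, adjusted p = 0.0393) and changed no other member's call.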
